A study of Mus musculus with 2 samples.

Results

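Low-depth mesenchymal barcodes were the part of a mouse bone marrow stromal culture that carried stromal collagen transcripts but few transcripts per droplet. A barcode marks 1 droplet of a 10x Chromium 3' library, and a UMI (unique molecular identifier) marks 1 captured transcript. Members were chosen by their measured totals, mitochondrial share and gate genes, so none of these is a finding. A barcode was a member when it had at least 500 detected genes, 1000 to under 20000 UMIs and a mitochondrial share of 1% to 15%. Per 10000 UMIs it also had to hold at least 60 of Col1a1, Col1a2 and Sparc together, and under 20 of the macrophage genes Csf1r, Adgre1, C1qa, C1qb, C1qc, Mrc1, Ctss and Cd68 together. The rule found 314 members in the Slc31a1 conditional knockout (cKO) library and 2169 in the wild-type (WT) library, 2483 of 15265 barcodes in all. The same gates at 20000 UMIs or more gave the deep stromal barcodes, 1217 in cKO and 1758 in WT, against which the members were described within each library.

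All mice carried Slc31a1flox/flox alleles on a C57BL/6J background. The cKO mice also carried Prrx1-Cre+/-, a Cre transgene driven by the promoter of a limb mesenchyme transcription factor, so the deletion was directed to mesenchymal cells and not to blood cells. The WT mice were littermates without Cre. Marrow was flushed from femurs and tibias and cultured in alpha-MEM with 10% serum, floating cells were removed after 48 h, and nothing was added to induce bone formation. There was 1 library per genotype, and the number of animals behind each was not given, so no difference between genotypes had a replicate check. Each interval below is a 95% counting interval (exact Poisson for a level, exact Clopper-Pearson for a share, exact conditional binomial for a ratio). These intervals cover counting error only and compare these 2 libraries, not the genotypes.

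Marrow stromal cells are fibroblast-like cells that secrete collagens, remodel matrix with metalloproteinases and can give rise to bone, fat and cartilage. Plastic-adherent marrow cultures also retain macrophages and other blood cells beside them. SLC31A1 (CTR1) is the main importer of copper into mammalian cells, and copper is the cofactor of cytochrome c oxidase and of the lysyl oxidases that crosslink collagen.

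The members filled a different place in each library. They were 6.35% (5.68 to 7.06) of the 4946 barcodes that passed the gene, UMI and mitochondrial limits in cKO and 27.6% (26.6 to 28.6) of 7860 in WT. Deep stromal barcodes were 24.6% (23.4 to 25.8) in cKO and 22.4% (21.4 to 23.3) in WT. Low-depth barcodes were thus 20.5% (18.5 to 22.6) of all gated stromal barcodes in cKO and 55.2% (53.7 to 56.8) in WT. With 1 library each, genotype, culture, cell loading and the choice of barcodes by the authors' pipeline cannot be told apart for this share.

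**Figure D1:**
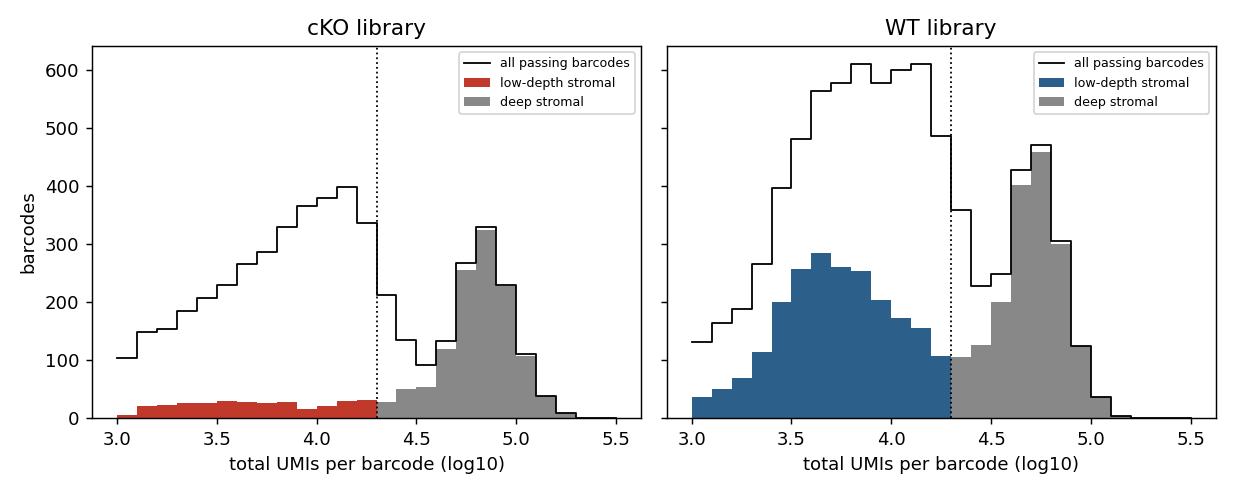
Total UMIs per barcode (log10, bins of 0.1) in the cKO and WT libraries: bars are low-depth members (red or blue) and deep stromal barcodes (grey), and the black line is every barcode that passed the limits. Deep stromal barcodes formed a separate peak in both libraries, while the 314 cKO members lay flat across the low range and the 2169 WT members formed a broad peak.

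The depth histogram shows that the line at 20000 UMIs lay on the side of the dip next to the members, short of the deep stromal peak. Members had a median of 4922 UMIs and 2285 genes in cKO and 5337 UMIs and 2571 genes in WT. Deep stromal barcodes had medians of 68148 UMIs in cKO and 51496 in WT. Members therefore held 1.72% of all UMIs of the cKO library and 9.45% of those of the WT library. The libraries held 126031142 UMIs over 6140 barcodes (cKO) and 152398639 over 9125 (WT). They shared 11 barcode sequences, and no barcode was a member in both. To compare classes at equal depth, each barcode was thinned at random to 1000 UMIs, the thinned UMIs were summed over a class, and levels are given per 10000 of those or as CPM, the UMIs scaled to a total of 1000000. At 1000 UMIs the members had slightly more genes than the deep barcodes, with medians of 713 against 695 in cKO and 722 against 700 in WT.

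Barcodes on both sides of the limits had the following values. The 13 cKO and 57 WT members nearest below 20000 UMIs had 140 and 153 UMIs of the mesenchymal identity genes per 10000, against 128 and 161 in the 11 cKO and 44 WT barcodes nearest above it. Near the macrophage gate, the 43 cKO and 215 WT members just inside held 38.3 and 39.9 UMIs per 10000 of macrophage genes that the gate did not use. The 20 cKO and 105 WT barcodes just outside held 49.9 and 47.4.

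The members carried mesenchymal transcripts near the level of deep stromal barcodes, slightly below it in cKO. The identity list held 20 genes (collagen chains outside the gate, Fn1, Postn, Pdgfrb, Prrx1 and others). Their summed level was 128 per 10000 in low-depth against 141 in deep cKO barcodes, a ratio of 0.908 (0.877 to 0.94). In WT it was 141 against 141, a ratio of 1 (0.986 to 1.02). In members of 1000 to under 2000 UMIs the list stood at 121 in cKO and 123 in WT. Macrophage-gated barcodes of the same UMI range (at least 60 per 10000 of the macrophage gate genes and under 60 of the stromal ones) held 19 in cKO and 17.2 in WT. Of the 20 genes, 13 reached the mean level of 50 CPM over the 4 classes that a gene needed to be tested. Of the 13, 0 differed 2-fold between low-depth and deep barcodes in either library. Few genes of any kind did: 3.10% were called higher and 1.61% lower in cKO, and 1.52% and 0.0535% in WT. The median log2 ratio of the 13 was 0.01 in each library, beside 0.02 in cKO and 0.03 in WT over all 3738 genes tested. Prrx1, the transcription factor whose promoter drove Cre, stood at 462 CPM in low-depth and 415 in deep cKO barcodes, and at 430 and 474 in WT. Fn1, which encodes fibronectin, stood at 3984 and 3541 CPM in low-depth and deep cKO barcodes and at 3893 and 3401 in WT. S100a6, a calcium-binding protein of growing fibroblasts, was the identity gene furthest below 1 in cKO, at 2019 against 3644 CPM (ratio 0.554), and stood at 2503 against 3042 in WT (0.823). Members and deep barcodes had to pass the stromal gate, and macrophage-gated ones to fall below it. The contrast with macrophage-gated barcodes was therefore favoured by the rule, and the mesenchymal part of the name is a description. What a low UMI total reflects in these barcodes was not tested.

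Of the 6 genes listed as markers of these barcodes, the 5 outside the gate were at equal depth within 2-fold of their level in deep stromal barcodes, in both libraries, as most genes tested were. Summed with Col1a1, which makes up most of the total, the 6 had a ratio of 1.25 (1.20 to 1.32) in cKO and 1.28 (1.25 to 1.31) in WT. Igfbp5, a secreted binding protein that modulates IGF signalling in bone, stood at 217 CPM in low-depth and 222 in deep cKO barcodes, with a ratio of 0.976 (0.737 to 1.28). In WT it stood at 455 in low-depth and 394 in deep barcodes, with a ratio of 1.15 (1.05 to 1.27). Against WT deep barcodes of 20000 to under 50000 UMIs only, the same ratio was 0.846. Ptx3, a soluble pattern recognition protein of the matrix, stood at 207 and 161 CPM in low-depth and deep cKO barcodes and at 206 and 213 in WT. Its intervals included 1 in both libraries. Mmp13, the collagenase of bone and cartilage, was the widest of the 6. It stood at 139 CPM in low-depth and 76.8 in deep WT barcodes (1.81, 1.47 to 2.23), and at 47.8 and 55.1 in cKO (0.868, 0.46 to 1.54). The low-depth cKO value rests on 15 UMIs, and over all UMIs the cKO order was opposite, at 60.8 and 44.6 CPM. WT deep barcodes of 20000 to under 50000 UMIs held 1.08 Mmp13 UMIs per 10000, and those above 50000 held 0.485. Aldh1a2, which makes retinoic acid, had ratios of 0.689 (0.281 to 1.48) in cKO and 1.09 (0.858 to 1.38) in WT. Itm2a, a membrane protein of cartilage and stromal cells, had ratios of 1.08 (0.615 to 1.82) in cKO and 0.783 (0.631 to 0.971) in WT, but a second random thinning gave 1.19 in WT. Col1a1 belonged to the gate, so its levels are a description: 6717 and 5269 CPM in low-depth and deep cKO barcodes and 7288 and 5582 in WT. The other gate genes were flatter, with Col1a2 at ratios of 0.909 in cKO and 1.05 in WT and Sparc at 0.896 and 0.976.

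The 5 markers outside the gate were higher in members than in macrophage-gated barcodes, a contrast that the gates favoured. The smallest ratio was for Mmp13 in cKO, at 60.8 against 16.1 CPM over all UMIs. A UMI of Igfbp5 was found in 15.9% (12.1 to 20.4) of thinned low-depth cKO barcodes, against 1.13% of macrophage-gated barcodes of that library. In WT it was found in 32% (30 to 34) of low-depth barcodes, against 2.58% of macrophage-gated ones. Before thinning the shares in members were 40.4% in cKO and 72.8% in WT, with median depths of 6022 UMIs in cKO and 8303 in WT for the macrophage-gated barcodes. The genes lie on chromosome 1 (Igfbp5, 72857932 to 72874884, minus strand), chromosome 9 (Mmp13, 7272514 to 7283331, and Aldh1a2, 71215789 to 71296243, both plus strand), chromosome 3 (Ptx3, 66219910 to 66225805, plus strand), chromosome 11 (Col1a1, 94936224 to 94953042, plus strand) and chromosome X (Itm2a, 107397099 to 107403376, minus strand) of the GRCm38 build.

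The genes at least 2-fold higher in the members of both libraries were largely genes that were also high in macrophage-gated or neutrophil-gated barcodes. Among 3738 genes tested, with gate genes and mitochondrial genes left out, 116 were at least 2-fold higher in low-depth than in deep barcodes in cKO (3.10%) and 57 in WT (1.52%). The 2 libraries had 54 of these in common (1.44% of the genes tested), which was 46.6% of the cKO list and 94.7% of the WT list. Of the 54, 48 (88.9%) were also at least 2-fold higher in macrophage-gated or neutrophil-gated barcodes (at least 500 per 10000 of S100a8 and S100a9) than in deep stromal barcodes in both libraries, a property of 507 (13.6%) of all genes tested. The level minimum was a mean that includes the low-depth classes, so some genes, such as Igkc, Ighg2b, Gpnmb and Chil3, passed it through their low-depth level. With the minimum set on deep barcodes alone, a choice made with the values known, 51 genes were higher in cKO, 25 in WT and 23 in both, of which 19 (82.6%) were high in the blood-cell classes, beside 408 (11.2%) of all genes. The blood-cell classes lie in the low UMI range too, so a gene that runs with depth in every cell type also counts here. Lars2, the mitochondrial leucyl-tRNA synthetase, made in all cells, was 1 of the 48, at 656 CPM in low-depth and 207 in deep cKO barcodes (3.17), 489 and 200 in WT (2.45), and 525 in cKO and 449 in WT neutrophil-gated barcodes. The other 6 were Cdk8, Cmss1, Gm42418, Gphn, Ighg2b and Igkc, named here after their values were seen. The genes at least 2-fold lower numbered 60 in cKO (1.61%) and 2 in WT (0.0535%), with 0 in common. Gm42418, a predicted gene that overlaps a ribosomal RNA sequence, was very abundant, at 29035 CPM in low-depth and 9004 in deep cKO barcodes (3.22) and at 20220 and 7836 in WT (2.58). It also stood at 17480 CPM in cKO and 16416 in WT macrophage-gated barcodes. The 2 genes lower in WT were Selenom and Polr2j, a subunit of RNA polymerase II named after its values were seen (ratio 0.818 in cKO and 0.495 in WT). Genes were called by fold alone, and no p-value goes with these counts, since each library is 1 sample.

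**Figure D2:**
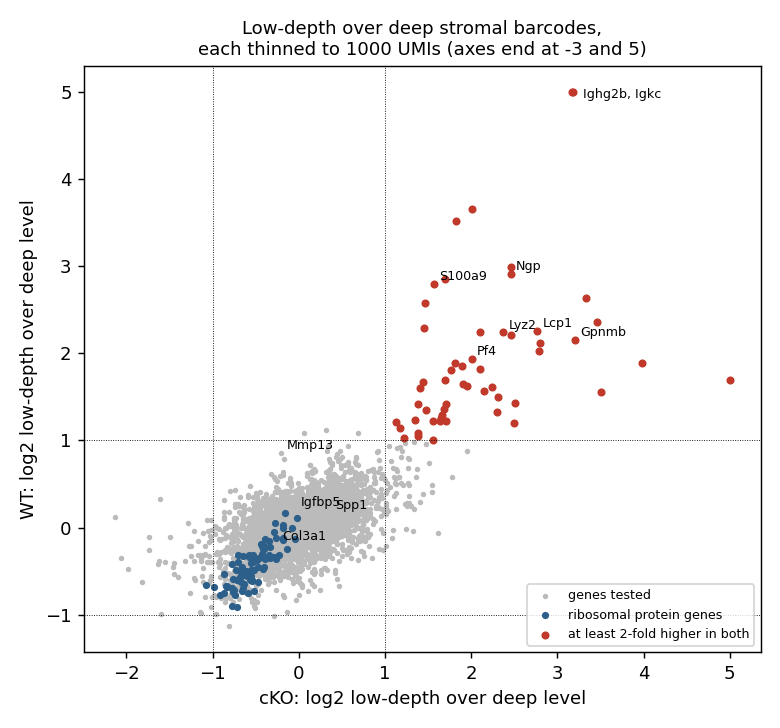
Log2 ratio of the low-depth over the deep stromal level for each of 3738 genes tested, cKO on the x axis and WT on the y axis; points past the axis limits are drawn at the limit. The 54 genes at least 2-fold higher in both libraries (red) extend to the upper right, ribosomal protein genes (blue) lie mostly below 0 in both, and Igfbp5, Mmp13, Spp1 and Col3a1 lie in the main cloud.

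The scatter of the 2 libraries' ratios shows 1 arm of high genes and a main cloud without a matching low arm. Neutrophil granule genes were among the highest. S100a9, a calcium-binding protein stored by neutrophils, stood at 672 CPM in low-depth and 226 in deep cKO barcodes (2.97, 2.47 to 3.57), and at 1072 and 154 in WT (6.96, 6.13 to 7.92). Its partner S100a8 stood at 583 and 180 in cKO and at 928 and 128 in WT. Ngp, a granule protein of immature neutrophils, had ratios of 5.49 in cKO and 7.56 in WT, and Chil3, a chitinase-like protein of myeloid cells, had 3.54 and 11.5. The ratio in cKO depended on the macrophage gate. With that gate set under 5 per 10000, which kept 2.77% in place of 6.35% of the passing cKO barcodes, S100a9 had a ratio of 1.11 and the whole neutrophil list 1.28 in cKO, against 7.76 in WT.

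Macrophage genes outside the gate were higher in both libraries. Lyz2, which encodes lysozyme, stood at 717 CPM in low-depth and 139 in deep cKO barcodes (5.16, 4.21 to 6.34), and at 642 and 135 in WT (4.74, 4.13 to 5.46). Gpnmb, a glycoprotein of lipid-laden macrophages, had ratios of 9.21 in cKO and 4.45 in WT, and in cKO 4.91 when thinned to 3000 UMIs. The pan-leukocyte genes Lcp1 and Laptm5 had ratios of 6.81 and 6.96 in cKO and 4.80 and 4.35 in WT. Sirpa, a myeloid receptor, had 4.28 in cKO and 4.74 in WT, and with the stricter macrophage gate 1.15 in cKO. Pf4, a chemokine of platelets and some macrophages, had ratios of 4.02 in cKO and 3.83 in WT. The gate capped 8 macrophage genes, so the height of any gene that moves with them was bounded by the rule.

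Immunoglobulin transcripts gave the largest ratio in WT among named genes, but from few barcodes. Immunoglobulin genes resemble each other, so the authors' counting may have split reads between them. Igkc, the kappa light chain of antibodies, stood at 468 CPM in low-depth and 51.8 in deep cKO barcodes (9.04, 6.69 to 12.4), and at 671 and 7.39 in WT (90.8, 52.9 to 171). Ighg2b, a heavy chain, stood at 252 and 27.9 in cKO and at 241 and 0.569 in WT, where deep barcodes gave 1 UMI (ratio 423, 75.6 to 16743). All Igkc UMIs of the members lay in 23 of 314 cKO and 120 of 2169 WT barcodes. The highest 5% of members held 92.3% of immunoglobulin UMIs in cKO and 89.4% in WT, so the counting intervals understate the error. Among cKO members under 10000 UMIs the ratios were 0.833 for Igkc and 0.154 for Ighg2b, and with the stricter macrophage gate Igkc had 0.518. In cKO the high value lay in members of 10000 to under 20000 UMIs, at 27.2 immunoglobulin UMIs per 10000, against at most 1.40 in the shallower cKO bins. In WT the order was opposite, with 17.6 and 18.6 per 10000 in the bins under 5000 UMIs and 1.28 in the bin next to 20000.

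The lists of other cell types were summed over all their genes. Macrophage genes not in the gate (7 genes) summed to 19.2 per 10000 in low-depth and 4.31 in deep cKO barcodes, and to 20.5 and 5.50 in WT. Neutrophil genes (10 genes) summed to 18.9 and 5.53 in cKO and to 27.8 and 3.83 in WT. Endothelial genes summed to 4.17 and 2.15 in cKO and to 2.43 and 1.91 in WT, and megakaryocyte genes, a list that holds Pf4, to 1.85 and 0.485 in cKO and to 2.31 and 0.620 in WT. Pericyte or smooth muscle genes were at 0.573 and 0.789 in cKO and at 0.650 and 0.739 in WT. B or plasma cell genes summed to 5.57 and 0.69 in cKO and to 9.25 and 0.205 in WT. T or NK cell genes (0.0955 in cKO and 0.0277 in WT members) and erythroid genes (0.0955 and 0.00922) were near 0, and Schwann cell genes were at 0.159 and 0.194. The macrophage and neutrophil lists moved with the low-depth class in both libraries, and their part in the other differences below was not tested.

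Counted without thinning, the macrophage and neutrophil lists were not larger in the members. A member held on average 17.2 neutrophil UMIs in cKO and 14.5 in WT, against 36.8 and 18.0 in a deep stromal barcode. It held 10.6 macrophage UMIs outside the gate in cKO and 12.0 in WT, against 25.9 and 29.5 in a deep barcode. Immunoglobulin genes were higher in members on this count too, at 12.1 UMIs in cKO and 4.44 in WT members against 3.36 and 1.10 in deep barcodes. For mesenchymal identity the gap was far wider, at 91.3 UMIs in cKO and 95.4 in WT members against 973 and 738 in deep barcodes. A UMI of S100a9 was present in 26.8% of thinned cKO members and 40.0% of WT members, in 24.3% and 17.6% of macrophage-gated barcodes, and in 8.22% and 9.22% of deep stromal barcodes.

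**Figure D3:**
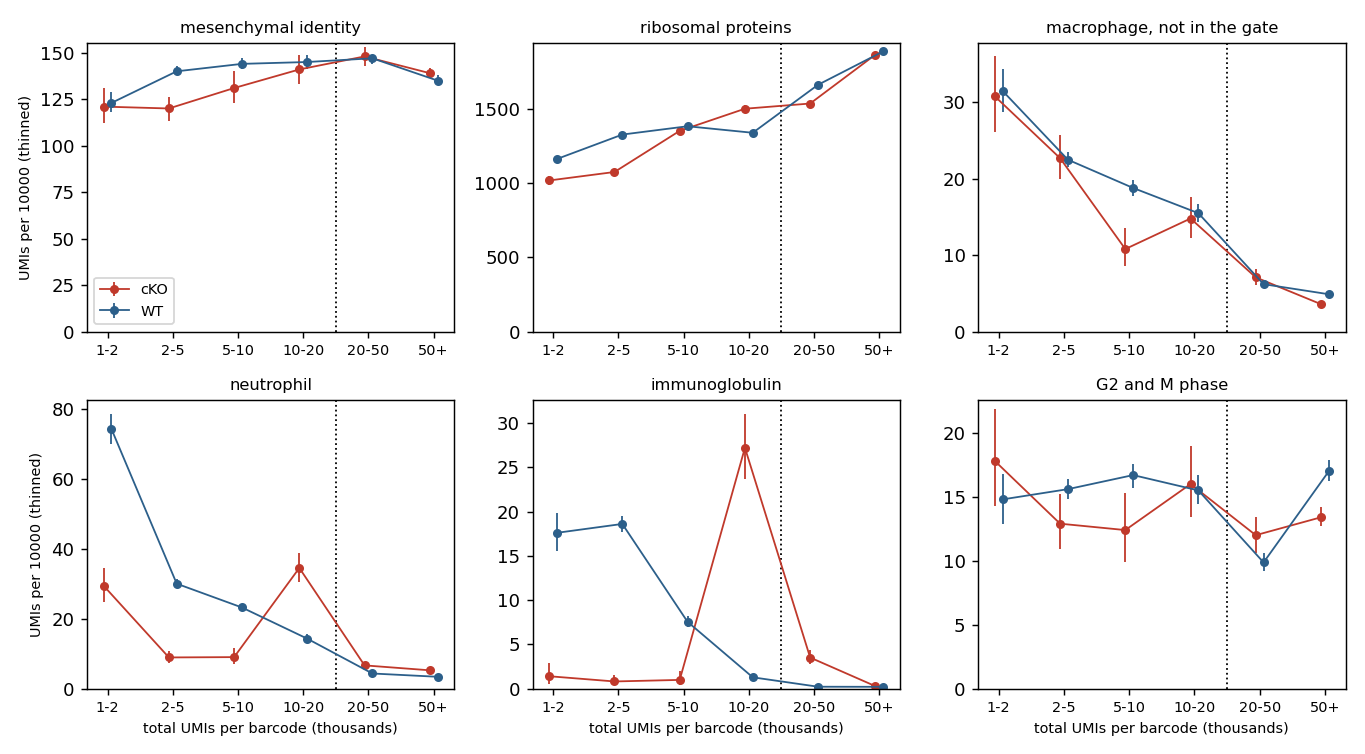
Summed level of 6 gene lists (UMIs per 10000, barcodes thinned to 1000 UMIs, bars are 95% Poisson intervals) in gated stromal barcodes of rising total UMIs, cKO in red and WT in blue; the dotted line marks 20000 UMIs. Macrophage genes fell from the shallowest to the deepest bin in WT, ribosomal protein genes were higher in the deep bins than in the shallowest ones, and mesenchymal identity stayed between 120 and 148.

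The plot of list levels by depth places these values along the whole range of totals. In WT, macrophage genes outside the gate stood at 31.5 per 10000 in barcodes of 1000 to under 2000 UMIs, then at 22.5, 18.8 and 15.5 in the next bins, and at 6.20 and 4.88 above 20000 and above 50000 UMIs. In cKO they stood at 30.8, 22.7, 10.8 and 14.8 below 20000 UMIs and at 7.09 and 3.58 above. WT neutrophil genes stood at 74.2, 30.0, 23.2 and 14.3 below 20000 and at 4.33 and 3.39 above, while the cKO values of 29.4, 8.92, 9.01 and 34.5 had no such order. Gphn and Cmss1, which had no 2-fold excess in the blood-cell classes of both libraries, also ran with depth in WT. Gphn, a scaffold protein of inhibitory synapses that is widely transcribed, stood at 13.8, 10.2, 7.75, 5.75, 4.56 and 2.86 per 10000 from the shallowest to the deepest WT bin, and at 6.80, 14.7, 17.3, 9.88, 6.10 and 3.55 in cKO. Cmss1 followed the same order as Gphn in WT, at 16.1 in the shallowest and 2.88 in the deepest bin. Tagln, an actin-binding protein of contractile cells, went the other way, at 8.98 in the shallowest and 18.1 in the deepest WT bin and at 13.0 and 18.7 in cKO.

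Ribosomal protein transcripts made up a smaller share of the members' UMIs. Cytosolic ribosomal protein genes made up a median of 11.0% of thinned UMIs in low-depth and 18.2% in deep cKO barcodes, and 13.4% and 18.1% in WT. The spread was wide, with the 10th and 90th percentiles at 7.13% and 19.3% in low-depth cKO barcodes and 9.20% and 17.5% in WT. Of 81 ribosomal protein genes tested, 1 was at least 2-fold lower in cKO (Rps2, 0.475, with 0.632 in WT) and 0 in WT, beside 1.61% and 0.0535% of all genes. Their summed ratio was 0.690 (0.682 to 0.697) in cKO and 0.750 (0.746 to 0.754) in WT, and their median log2 ratio was -0.55 in cKO and -0.45 in WT, beside 0.02 and 0.03 over all genes tested. The difference was spread over the genes rather than carried by a few. Macrophage-gated barcodes of the same depth range had medians of 7.40% in cKO and 8.50% in WT.

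Subunits of the respiratory chain encoded in the nucleus showed a smaller difference of the same sign. All 22 were tested and 2 were at least 2-fold lower in cKO (Atp5g1 and Ndufb2) and 0 in WT, beside 1.61% and 0.0535% of all genes, with median log2 ratios of -0.37 in cKO and -0.17 in WT, and their summed ratio was 0.798 (0.759 to 0.839) in cKO and 0.869 (0.848 to 0.891) in WT. Atp5g1, subunit c of ATP synthase, stood at 185 CPM in low-depth and 399 in deep cKO barcodes (0.463) and at 236 and 362 in WT (0.650). Ndufa13, a subunit of complex I outside that list, had ratios of 0.451 in cKO and 0.510 in WT, and in cKO 0.700 when thinned to 3000 UMIs. The mitochondrially encoded transcripts went the other way, with summed ratios of 1.21 in cKO and 1.25 in WT, but the mitochondrial share was part of the rule and is given as a description. Other genes with the lowest ratios in both libraries included Ssr4, a subunit of the complex at the ER translocation channel (0.418 in cKO and 0.594 in WT), Nupr1, a stress-induced chromatin protein (0.515 and 0.501), and Selenom, an ER selenoprotein (0.570 and 0.458). Edf1, a coactivator that also senses collided ribosomes, had 0.455 and 0.506. Hspb1, a small heat shock protein, had 0.471 and 0.575, but 0.871 in cKO with the second random thinning. Ddx24 had 0.301 in cKO and 0.925 in WT, and 0.724 in cKO with that second thinning.

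Collagen, bone and contractile genes gave no 2-fold call, as most genes did: 3.10% of all genes were called higher and 1.61% lower in cKO, and 1.52% and 0.0535% in WT. Of 14 collagen chain genes tested, 0 differed 2-fold in either library, with a median log2 ratio of 0.01 in each and a summed ratio over the list of 1.04 (1.01 to 1.07) in cKO and 1.10 (1.08 to 1.11) in WT. Of 7 osteoblast genes tested outside the gate, 0 differed 2-fold, with medians of -0.10 in cKO and -0.07 in WT, while the summed ratio of the whole list was 1.10 (1.06 to 1.13) in cKO and 1.14 (1.13 to 1.16) in WT. Spp1, which encodes osteopontin, stood at 3691 CPM in low-depth and 2889 in deep cKO barcodes (1.28) and at 2336 and 2071 in WT (1.13). Runx2, the transcription factor required for bone formation, had ratios of 0.983 in cKO and 1.01 in WT. Of 17 contractile genes, 0 differed 2-fold, and their summed ratio was 0.861 (0.831 to 0.893) in cKO and 0.879 (0.864 to 0.895) in WT. Of 6 interferon response genes tested, 3 were at least 2-fold higher in cKO (3.10% of all genes) and 0 in WT (1.52%). Among them B2m, the light chain of MHC class I, stood at 968 and 435 CPM in low-depth and deep cKO barcodes (2.23) and at 799 and 531 in WT (1.5). Ifitm3, an antiviral membrane protein, lay the other way at 0.707 in cKO and 0.627 in WT.

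Genes of G2 and M phase were spread more evenly over the members than over deep barcodes. They summed to 14.4 per 10000 in low-depth and 13.1 in deep cKO barcodes (1.09, 0.983 to 1.21) and to 15.9 and 13.6 in WT (1.16, 1.10 to 1.23). The S phase list had summed ratios of 1.30 (1.14 to 1.48) in cKO and 1.32 (1.23 to 1.42) in WT. The share of barcodes with at least 2 G2 and M phase UMIs was 33.8% in low-depth and 28.3% in deep cKO barcodes, and 43.2% and 28.3% in WT. The highest 5% of barcodes held 25.5% of the G2 and M phase UMIs in low-depth and 31.3% in deep cKO barcodes, and 18.3% and 30.5% in WT. The variance over the mean across barcodes, which is 1 for pure counting noise, was 2.45 in low-depth and 3.68 in deep cKO barcodes and 1.54 and 3.69 in WT. No cycling state was read from these values.

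**Figure D4:**
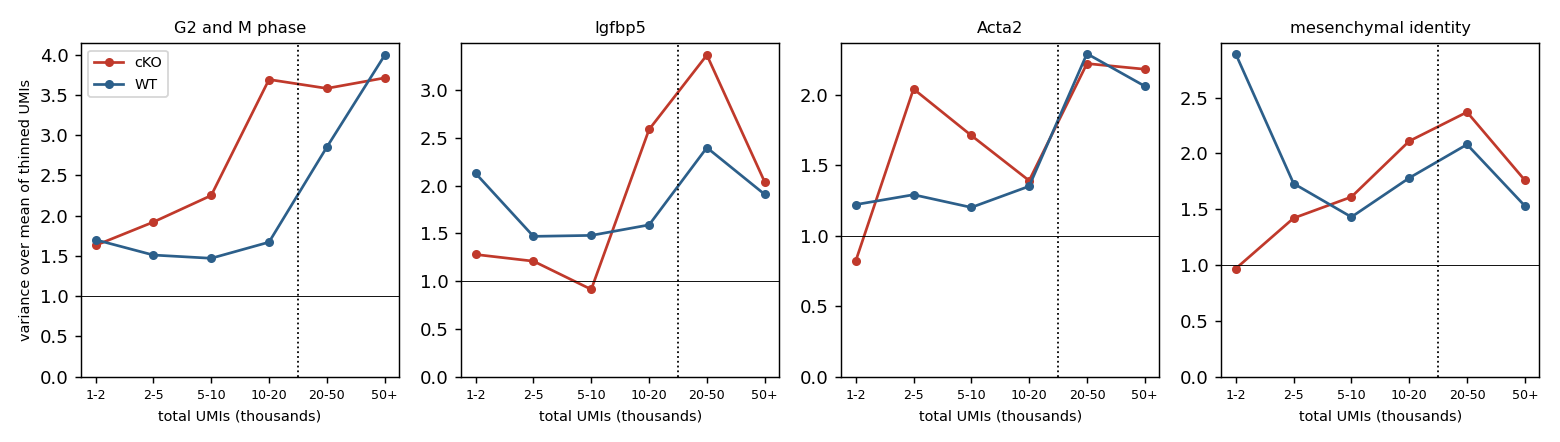
Variance over mean of thinned UMIs across barcodes (y axis; the line at 1 is counting noise) by total UMIs for the G2 and M phase list, Igfbp5, Acta2 and the mesenchymal identity list, cKO in red and WT in blue. In WT the cell cycle value lay between 1.47 and 1.70 in the bins under 20000 UMIs and at 2.85 and 3.99 above, while in cKO it stood at 3.69 already in the bin of 10000 to under 20000 UMIs.

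The plot of spread by depth shows that the change lay at 20000 UMIs in WT and lower in cKO, where the bins under 10000 UMIs had 1.63, 1.92 and 2.25. Among the 12 genes of widest spread in deep barcodes, Ibsp, Igfbp5, Acta2, Timp3 and Ctla2a had a lower value in the members of both libraries. Ibsp, bone sialoprotein, an early marker of osteoblasts, had a variance over mean of 1.06 in low-depth and 3.14 in deep cKO barcodes and of 1.14 and 2.87 in WT. Its level was 57.3 CPM in low-depth and 76.4 in deep cKO barcodes and 71.5 and 96.7 in WT. In WT, 155 Ibsp UMIs were spread over 141 members with at most 3 in 1 barcode, whereas 170 in deep barcodes lay in 101 with up to 12 in 1. Igfbp5 had 1.58 and 2.50 in cKO and 1.54 and 2.27 in WT, Acta2, smooth muscle actin, 1.61 and 2.19 in cKO and 1.27 and 2.17 in WT, and Timp3, a metalloproteinase inhibitor, 2.46 and 4.16 in cKO and 1.96 and 3.98 in WT. Malat1, a nuclear RNA, went the other way in both libraries, at 9.98 in low-depth and 5.38 in deep cKO barcodes and 9.61 and 7.1 in WT, as did Ngp, at 2.48 and 2.12 in cKO and 4.15 and 3.56 in WT. Spp1 had 8.05 in low-depth and 4.08 in deep cKO barcodes and 2.27 and 3.32 in WT, and Mgp, matrix Gla protein, 6.92 and 7.40 in cKO and 3.64 and 2.48 in WT. These 12 were picked for a high value in deep barcodes, which favours a lower one in the members. Over all genes tested, 33 in low-depth and 22 in deep cKO barcodes reached a variance over mean of 2, and 14 and 19 in WT. Over all 3738 genes tested the median was 1.02 in both classes in cKO and 1.01 and 1.02 in WT.

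The targeted gene, Slc31a1 (chromosome 4, 62360727 to 62391769, plus strand), checks the genotype labels. Deep cKO barcodes had 15 CPM over all their UMIs (1296 UMIs) and deep WT barcodes 41.8 (3924 UMIs), a ratio of 0.359 (0.337 to 0.382). The members had 19.8 CPM in cKO (43 UMIs) and 48.2 in WT (694 UMIs), a ratio of 0.411 (0.295 to 0.560). Macrophage-gated barcodes, which as blood cells lie outside the lineage that Prrx1 marks, had 79.9 in cKO and 68.4 in WT, a ratio of 1.17 (1.06 to 1.28). After thinning to 1000 UMIs only 12 UMIs were left in cKO members and 101 in WT members, at 38.2 and 46.6 CPM, and the ratio of 0.821 (0.41 to 1.5) did not leave out 1. Deep barcodes at 1000 UMIs had 12.3 CPM in cKO (15 UMIs) and 54.6 in WT, a ratio of 0.226 (0.122 to 0.391). Low-depth over deep, the ratio at that depth was 3.1 (1.33 to 7.1) in cKO and 0.853 (0.638 to 1.14) in WT. Thinned to 3000 UMIs, with shallower members left out, the cKO over WT ratio in members was 0.392 (0.206 to 0.682). At 1000 UMIs the alternatives lay between 0.477 (0.171 to 1.08), with the stromal gate at 100, and 1.58 (0.628 to 3.51), with the stricter macrophage gate, and another random thinning gave 0.586 (0.261 to 1.16). The lower Slc31a1 level was therefore measured over all UMIs, in which the deeper members weigh most, and at 3000 UMIs. At 1000 UMIs, with 12 UMIs left in cKO members, the interval held 1, and the reason for this gap was not tested. The labels do not say which exons were floxed, and 3' counts can include transcripts that lack an upstream exon.

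Between the genotypes, 202 of 3843 genes tested were at least 1.5-fold higher in cKO than WT members (5.26%) and 194 at least 1.5-fold lower (5.05%). The same genes in deep barcodes gave 34 higher (0.885%) and 59 lower (1.54%). The members' counts rest on 314000 thinned UMIs in cKO and 2169000 in WT, and over all UMIs without thinning they were 60 higher and 70 lower. With the level minimum set on WT members alone, 108 were higher and 288 lower. The cause of these changes was not tested.

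**Figure D5:**
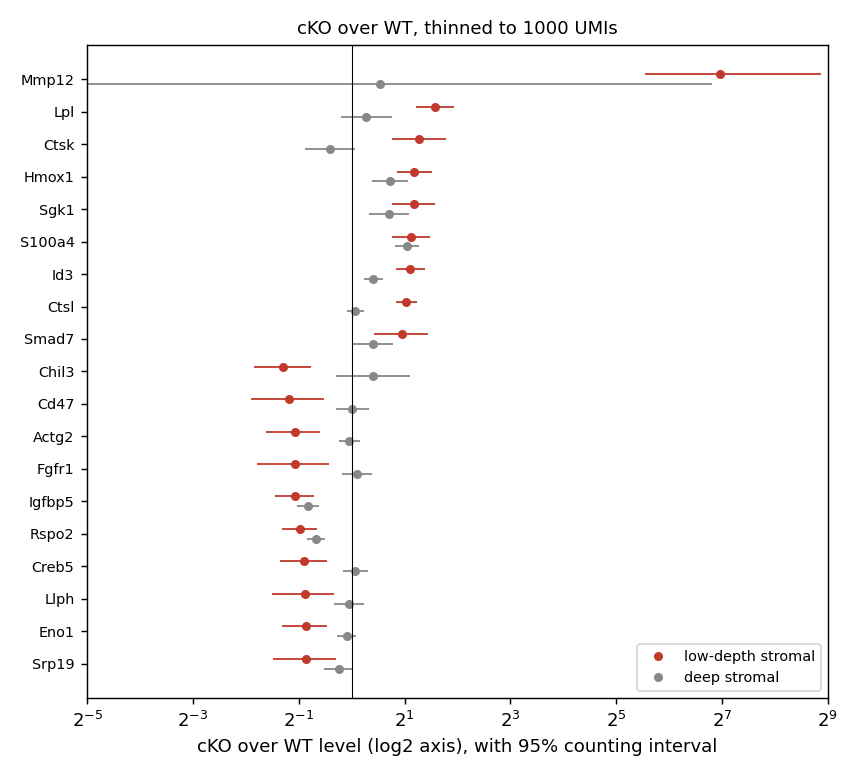
Level in cKO over WT (log2 axis) with its 95% counting interval, in low-depth members (red) and deep stromal barcodes (grey), for 9 of the 10 highest and the 10 lowest named genes in members; intervals past the axis are cut at its ends. Mmp12 stands apart at 124 in the members, while S100a4, Igfbp5 and Rspo2 lie close together in both classes.

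Mmp12, the elastase of macrophages, was the most different gene in the plot of cKO over WT ratios. It stood at 229 CPM in cKO members (72 UMIs in 45 barcodes) and 1.84 in WT members (4 UMIs in 4 barcodes), a ratio of 124 (46.5 to 469). It passed the minimum, a mean over cKO and WT members, through its cKO level. Over all UMIs the ratio was 44.9 and thinned to 3000 UMIs it was 30.0. Deep stromal barcodes had 1 UMI in each library, and macrophage-gated barcodes had 44.6 CPM in cKO and 22.2 in WT. Mmp12 lay in the shallowest cKO members, at 7.60 per 10000 in barcodes of 1000 to under 2000 UMIs, then 2.61, 0.563 and 0.122 in the next bins. The 45 cKO members with a Mmp12 UMI had a median of 2123 total UMIs and 42.0 macrophage UMIs per 10000, gate genes included, against 5675 and 23.8 in the other 269. They also carried 118 mesenchymal identity UMIs per 10000, against 130 in the others.

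Osteoclast genes were higher in cKO members too. The 7 genes of the list had a summed ratio of 4.86 (3.86 to 6.10) in members, 1.05 (0.796 to 1.37) in deep barcodes and 2.04 (1.6 to 2.61) in macrophage-gated barcodes. Of these, 3 passed the level minimum, Acp5 and Mmp9 through their cKO level, so no count of calls is read. Acp5, the acid phosphatase used to stain osteoclasts, stood at 131 CPM in cKO and 11.1 in WT members (11.8, 6.96 to 20.4). Ctsk, the collagen-cleaving cathepsin of osteoclasts that stromal cells also transcribe, stood at 146 and 60.4 (2.43, 1.69 to 3.42), against 47.7 and 63.1 in deep cKO and deep WT barcodes. Mmp9 stood at 98.7 and 11.5 in cKO and WT members. These UMIs came from 62 of 314 cKO members and 183 of 2169 WT members, and the highest 5% of members held 60.2% of them in cKO. The 62 cKO members had 46.0 neutrophil and 36.0 macrophage UMIs per 10000, against 12.2 and 24.0 in the other 252. The part of these blood-cell transcripts in the osteoclast difference was not tested.

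Other genes higher in cKO members fell into those that kept their ratio and those that did not. Id3, an inhibitor of DNA binding induced by BMP signals, stood at 487 CPM in cKO and 225 in WT members (2.16, 1.79 to 2.60), with 2.02 over all UMIs and 1.33 in deep barcodes. Sgk1, a kinase induced by serum and glucocorticoids, stood at 220 and 97.7 (2.25, 1.69 to 2.96), with 2.38 over all UMIs and 1.63 in deep barcodes. S100a4, a calcium-binding protein of motile fibroblasts, stood at 268 and 123 (2.18, 1.69 to 2.80), with 2.15 over all UMIs and 2.07 in deep barcodes. Hmox1, the haem-degrading enzyme of the oxidative stress response, stood at 322 and 142 (2.27, 1.80 to 2.85), with 1.68 over all UMIs. Smad7, an inhibitor of TGF-beta and BMP signalling, had 1.93 (1.34 to 2.72), with 1.59 over all UMIs and 1.45 when thinned to 3000. The ratios of Lpl, lipoprotein lipase, and Ctsl, a lysosomal cathepsin, were 2.99 and 2.05 at 1000 UMIs and 1.58 and 1.5 over all UMIs. Over all UMIs they were 0.88 and 1.01 in deep barcodes and 1.16 and 1.45 in macrophage-gated barcodes. Lpl stood at 315 CPM in cKO and 106 in WT members, below the 751 and 658 of macrophage-gated barcodes. Cd36, a fatty acid receptor of macrophages and fat cells, stood at 156 CPM in cKO and 36.0 in WT members (4.34), against a ratio of 1.02 in deep barcodes. Of 6 adipogenic genes tested, Cd36 and Lpl were the 2 past 1.5-fold, beside 5.26% of all genes. Cd36 passed the level minimum through its cKO level, so no count of calls is read. Both genes were also at least 2-fold higher in low-depth than deep barcodes of each library, beside 1.44% of all genes.

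Among the genes lower in cKO members, the stromal secreted factors Igfbp5 and Rspo2 kept their ratios. Igfbp5 stood at 217 CPM in cKO and 455 in WT members (0.476, 0.367 to 0.609), with 0.414 over all UMIs and 0.563 in deep barcodes. Rspo2, an enhancer of WNT signalling, stood at 261 and 513 (0.509, 0.402 to 0.637), with 0.513 over all UMIs and 0.630 in deep barcodes. Macrophage-gated barcodes, where both genes were low, also had lower cKO values over all UMIs. Their ratios were 0.457 (0.357 to 0.579) for Igfbp5 and 0.609 (0.484 to 0.761) for Rspo2, so the difference was not particular to the stromal classes. Mmp13 stood at 47.8 and 139 (0.344, 0.190 to 0.577), and was 0.432 over all UMIs and 0.197 among members under 10000 UMIs. In deep barcodes its ratio was 0.717 at 1000 UMIs and 0.542 (0.521 to 0.563) over all UMIs. Aldh1a2 stood at 25.5 and 77.9 (0.327, 0.139 to 0.659) on 8 UMIs in cKO, with 0.390 over all UMIs and 0.603 in the second thinning. Ptx3 did not differ beyond its interval at 1000 UMIs (1.00, 0.762 to 1.31) and had 0.799 (0.715 to 0.890) over all UMIs. Chil3, a myeloid gene, stood at 102 and 249 (0.409, 0.277 to 0.585), and at 0.700 over all UMIs. Actg2, smooth muscle gamma actin, had 0.473, and 0.754 over all UMIs, and Creb5 and the glycolytic enzyme Eno1 had 0.537 and 0.546, and 0.657 and 0.693 over all UMIs. Cd47, Fgfr1, Llph and Srp19 had ratios of 0.441 to 0.550 at 1000 UMIs but 0.830 to 0.954 over all UMIs.

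Read as groups, the BMP response genes had 5 of 7 tested members at least 1.5-fold higher in cKO than WT members, beside 5.26% of all genes, and a median log2 ratio of 0.73, beside -0.01. In deep barcodes 1 of the 7 passed (Smad6, 1.63), beside 0.885% of all genes, with a median of 0.40. The 5 were Id2, Id3, Smad6, Smad7 and Grem1, of which Grem1 encodes a secreted BMP antagonist (89.2 CPM in cKO and 53.5 in WT members). The receptors Bmpr1a and Bmpr2 had ratios of 0.703 and 0.857. The summed ratio over the 12 genes was 1.54 (1.38 to 1.72) in members, 1.23 (1.15 to 1.32) in deep barcodes and 1.83 in macrophage-gated barcodes. Chemokine and cytokine genes had 5 of 6 tested members at least 1.5-fold higher in cKO members, beside 5.26% of all genes. Of the 5, Cxcl14 and Ccl7 passed the level minimum through their cKO level, so this count is not read as a result about the list. The 5 were Cxcl14 (2.89), Ptgs2, the inducible prostaglandin synthase (2.64), Ccl7 (2.13), Tnfrsf11b, which encodes the RANKL decoy osteoprotegerin (1.62), and Csf1, the macrophage growth factor (1.60). The summed ratio over the list was 1.47 (1.32 to 1.63) in members, 1.20 (1.12 to 1.29) in deep barcodes and 1.45 (1.3 to 1.61) in macrophage-gated barcodes. Mesenchymal identity genes had 1 of 13 at least 1.5-fold lower in cKO members (Pdgfrb, 0.657), beside 5.05% of all genes, and none higher, beside 5.26%. Their summed ratio was 0.908 (0.879 to 0.939). Of 7 copper handling genes tested, 1 was at least 1.5-fold higher (the metallothionein Mt2, 2.16) and 0 lower, beside the same shares of all genes. The summed ratio of the copper list was 0.990 (0.899 to 1.09). With so few genes, the mesenchymal and copper counts are not read as results about the lists. Of the 81 ribosomal protein genes tested, 0 passed in either direction, beside 5.26% higher and 5.05% lower of all genes. Macrophage genes outside the gate had a summed cKO over WT ratio of 0.939 (0.861 to 1.02) in members, and neutrophil genes 0.680 (0.624 to 0.740), which became 1.13 over all UMIs.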

How the data were processed

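The authors deposited unnormalized UMI counts per gene and barcode for 2 libraries, per the file headers the output of Cell Ranger 7.1.0. The builds mm10 and GRCm38 and the tool Seurat are named in the submitters' processing notes. No source here states how reads in introns were treated. The 32285 genes and all deposited barcodes were read with Python 3.11.15, numpy 2.4.6, scipy 1.17.1 and pandas 2.3.3. Both libraries carry 1 batch label. Each barcode kept was thinned once, without replacement and with a fixed seed, to 1000 UMIs, and the thinned UMIs were summed per class. A gene was tested when its mean level was at least 50 CPM over the classes compared, with gate and mitochondrial genes left out. It was called at 2-fold (low-depth over deep) or 1.5-fold (cKO over WT). The genes named were the 12 highest and 12 lowest (10 for cKO over WT) at 100 CPM or more whose interval left out 1, the listed markers, the targeted gene and members of 43 gene lists; 1 gene that this rule names is not reported here. Members and lists were chosen with earlier results of these data known. No doublets were removed: Scrublet (scanpy 1.11.5) called 1 cKO and 4 WT barcodes, so its automatic threshold had not worked, and an alternative left out the 196 cKO and 494 WT barcodes of highest score. UMIs cluster in barcodes, so counting intervals are too narrow. The ratio and its interval were checked on simulated data.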

Additional observations from a re-analysis of the deposited data

Results flagged for a closer look

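The BMP response list (12 genes, among them the Id and Smad inhibitors that BMP signals induce) lay on opposite sides of 1 in the 2 libraries when low-depth members were set against deep stromal barcodes. Its summed ratio was 1.16 (1.04 to 1.30) in cKO and 0.93 (0.869 to 0.994) in WT. The difference between the libraries was not tested, since each genotype is 1 library. By rising total UMIs, the summed level per 10000 was 17.6, 13.7, 10.8, 12.0, 13.0 and 10.9 in cKO and 8.34, 8.12, 8.39, 9.79, 9.35 and 9.09 in WT. The cKO values were highest in the shallowest barcodes, and those of WT were flat. With the macrophage gate set under 5 per 10000 the cKO ratio was 0.98, and over all UMIs without thinning the WT ratio was 1.01.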

How the results depend on the processing

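No paired analysis was possible because each genotype is 1 library, and leaving out a replicate was not possible for the same reason. Of 1017 recomputed values for 117 single genes and lists, 789 stayed within the interval of the main value, 214 moved beyond it on the same side of 1 or from a main value whose interval held 1, and 14 crossed 1 from an interval that left it out; 1 more had no value, since Ighg2b had 0 UMIs in WT barcodes of 20000 to under 50000 UMIs. The members' share of barcodes was 4.69% in cKO and 22.0% in WT with members under 10000 UMIs, 2.77% and 10.7% with the macrophage gate under 5, and 5.56% in cKO with a stromal gate of 100. Slc31a1 in cKO over WT members was 0.392 at 3000 UMIs and 1.58, across 1, with the macrophage gate under 5. Genes at least 2-fold higher in low-depth barcodes numbered 63 in cKO at 3000 UMIs and 60 over all UMIs, and 24 in both libraries with the macrophage gate under 5. Genes at least 2-fold lower numbered 9 in cKO and 1 in WT at 3000 UMIs, 2 and 0 over all UMIs, 112 and 5 with members under 10000 UMIs, 117 and 10 with the macrophage gate under 5, and 98 in cKO against deep barcodes of 20000 to under 50000 UMIs. In WT they numbered 1 with another random thinning, 4 without the highest doublet scores and 6 after centring. In cKO over WT members, genes 1.5-fold higher and lower numbered 97 and 116 at 3000 UMIs, 60 and 70 over all UMIs, 369 and 500 with the macrophage gate under 5, and 317 higher with members under 10000 UMIs. With a minimum level of 20 CPM the counts were 410 higher and 217 lower in cKO, 163 and 10 in WT, 133 higher in both, and 666 and 649 for cKO over WT. With no minimum they were 2422 and 3436, 2947 and 1807, 769, and 2940 and 5442. With the minimum on deep or WT barcodes alone, also added after the data were seen, 51 were higher in cKO, 25 in WT and 23 in both, and 108 for cKO over WT. Counts that also required an interval leaving out 1, added after the data were seen, stayed within 1.5 times the main ones, except that genes lower in cKO than WT members numbered 119. For low-depth over deep, values crossed 1 in this sense for Itm2a in WT (1.07 at 3000 UMIs, 1.06 over all UMIs, 1.19 with another thinning), Prrx1 in WT (1.00 at 3000 UMIs, 1.08 with another thinning), Igfbp5 in WT (0.846 against the shallower deep barcodes), Igkc in cKO (0.833 under 10000 UMIs, 0.518 with the macrophage gate under 5), Ighg2b in cKO (0.154 under 10000 UMIs) and BMP response genes (1.01 in WT over all UMIs, 0.98 in cKO with the macrophage gate under 5). For cKO over WT they were neutrophil genes (1.13 over all UMIs) and ribosomal protein genes (1.02 over all UMIs, 1.04 with the macrophage gate under 5). The cause of these changes was not tested. The depth of the cKO members, 314000 thinned UMIs in all, limits single-gene folds there.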
